A study of Mus musculus with 60 samples.

Results

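Ventral hippocampus from mice taken 45 minutes after Restraint was compared with ventral hippocampus from Homecage mice, with 5 libraries in each group, 10 of the 60 libraries in the series. Every mouse was wild-type C57BL/6 at postnatal day 105, so both groups share strain, genotype and age, and the treatment is the only labelled difference between them. The form and length of the Restraint and the sex of the mice are not given in the labels, and whether the 45 minutes ran from its start or its end is not given in the series record. The other libraries are from whole and dorsal hippocampus and from mice after Handling or Swim, and the series has 12 groups of 5 in all. The members are all genes of the one table that sets these groups against each other, 13748 genes with 1 entry for each Ensembl gene ID.

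The ventral hippocampus exchanges fibres with the amygdala, the hypothalamus and the prefrontal cortex, and it is tied to emotion, anxiety and feedback on the stress hormone axis. Stress reaches it by at least 2 routes. Synaptic input raises calcium and cyclic AMP in neurons, kinases phosphorylate the factors CREB, SRF and Elk1, and these switch on immediate early genes within minutes without new protein. Corticosterone from the adrenal gland enters the brain more slowly, binds the mineralocorticoid receptor (Nr3c2) and the glucocorticoid receptor (Nr3c1), and the occupied receptors bind DNA near genes such as Per1, Sgk1 and Tsc22d3.

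Poly(A)-enriched RNA was sequenced, and the authors' tables give for each gene the mean estimated count of each group, a fold change and an adjusted p. Over the genes tested the means summed to 25007332 estimated counts for Homecage and 24894596 for Restraint in the authors' deposited table. This is the mean count on those genes and not the whole depth of a library. Only group means were used here, without values for each library, so a mean carries no standard deviation and the error between replicates enters through the authors' adjusted p. The error printed after a log2 fold change is the standard error implied by that fold change and its p. Of 16 genes listed as markers of ventral hippocampus, 13 were higher and 3 lower in ventral than in dorsal Homecage tissue at adjusted p below 0.05, with Dcn at a log2 ratio of 3.57 and Trhr at 3.96 in the authors' deposited table. Of 13 listed dentate granule cell markers 12 were lower in ventral tissue, Prox1 by a log2 ratio of -1.12 in the authors' deposited table.

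After Restraint 329 of 13748 genes (2.39%) passed an adjusted p of 0.05, 203 of them higher (1.48%) and 126 lower (0.916%). The 203 rises had a median size of 0.34 on the log2 scale and the 126 falls one of 0.35. Only 17 rises and 5 falls were larger than 2-fold, and 144 rises and 86 falls were smaller than 0.5 on the log2 scale. By adjusted p the rises were led by Fos (a subunit of the AP-1 transcription factor), Sgk1 (a kinase that controls ion transporters and is induced by corticosteroids) and Fosb (a relative of Fos). By the same order the falls were led by Hes5 (a repressor that Notch signalling switches on), Necab1 (a calcium-binding protein of neurons) and Nrep (a regulator of neuronal growth). The largest rise was 2.76, of Apold1 (an early gene of vascular endothelium), and the largest fall −1.40 on the log2 scale. The median log2 fold change of all genes was 0.0035.

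**Figure D1:**
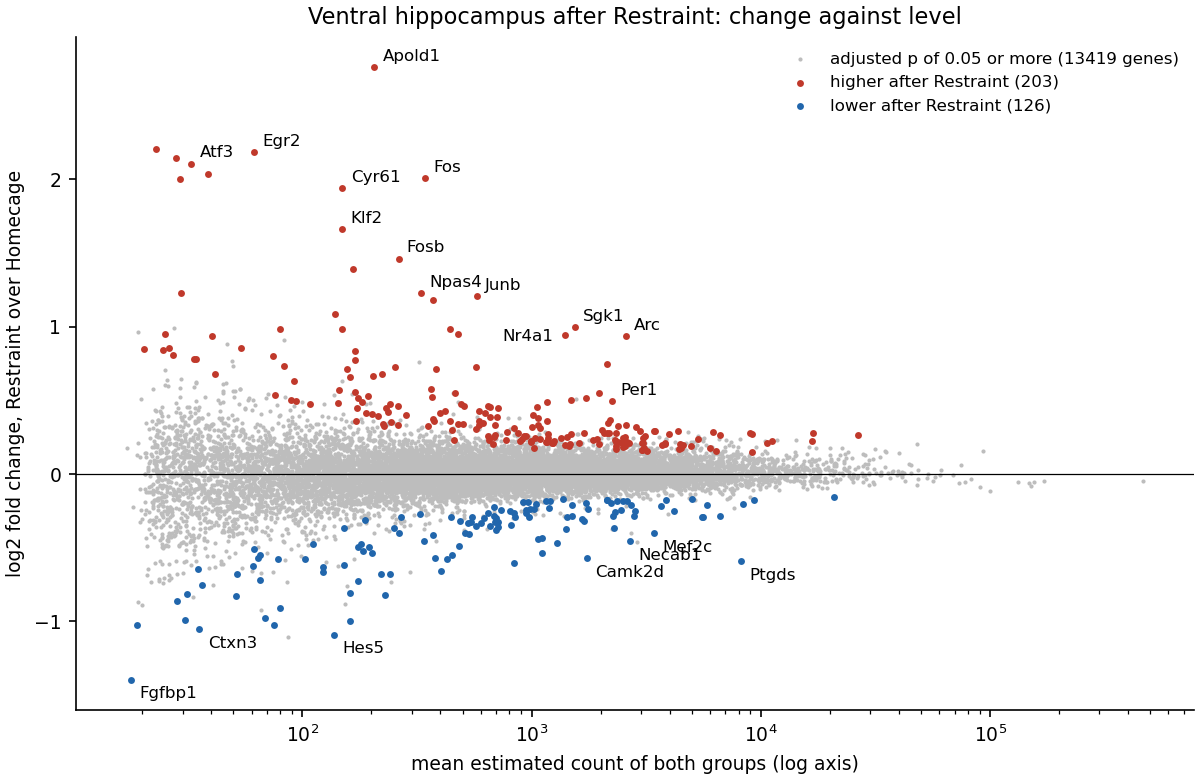
Log2 fold change of each gene in ventral hippocampus, Restraint over Homecage (vertical axis), against the mean estimated count of both groups (horizontal log axis); red and blue points passed an adjusted p of 0.05. The rises larger than 2-fold lie mostly among genes of low and middle level, and the falls are smaller than the largest rises.

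The called genes differed in base composition. The median GC content of the transcripts was 55.5% for the rises, 47.7% for the falls and 50.8% for all genes, and Spearman's rho of the fold change with GC content was 0.376 across genes, which are not independent replicates. It was −0.461 in dorsal and 0.265 in whole hippocampus after Restraint, so the sign of this trend differed between dissections. Against the same Homecage libraries it was 0.674 after Swim and 0.435 after Handling in ventral tissue, and −0.581 and −0.333 in dorsal tissue. The trend was thus positive for every treatment in ventral tissue and negative for every treatment in dorsal tissue. The treatments of a dissection share their Homecage libraries, so these values are not independent of each other. For ventral against dorsal Homecage tissue the rho was −0.361. With the GC trend subtracted, 238 genes passed (1.73%), 130 higher and 108 lower, and 122 of the rises and 93 of the falls were among them. The part that base composition plays in the small rises was not tested, and where a named gene no longer passed, its adjusted p with the GC trend subtracted is given.

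The letters of the cyclic AMP response element, to which CREB binds, were more frequent before the starts of genes that rose in every dissection than over all genes tested, a comparison given without a test. In total 29 genes rose in the ventral, dorsal and whole tables alike, and 27 of them matched a RefSeq promoter (assembly GRCm38.p6). The motif TGACG, a half-site of the element, was searched on both strands of the 250 bases before each start, and a gene counted when any of its starts held it. It was found in 20 of the 27 (74.1%), in 59 of 158 rises with a promoter (37.3%), in 27 of 98 falls (27.6%) and in 29.8% of the genes tested. Among genes with 1 start in the RefSeq table the shares were 71.4% of the 21 common rises, 31.0% of all rises, 21.7% of the falls and 27.2% of the genes tested. The full element TGACGTCA, which overlaps the half-site and holds it on both strands, was in 22.2%, 5.70%, 3.06% and 3.01% of the common rises, all rises, falls and genes tested. The glucocorticoid response element, searched by its consensus over the same 250 bases, was found in 1 rise with a promoter, Sgk1, in no fall and in 0.0826% of the genes tested. A match describes the letters in these windows and shows no binding.

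The following windows belong to genes the results turn on, and each of them holds a motif. They do not represent the common rises, of which 20 of 27 held TGACG. Each line holds the 250 bases before a RefSeq start, read 5′ to 3′ on the gene's strand, in GRCm38.p6. Capitals mark TGACG, its reverse complement CGTCA and TGACGTCA, and in Sgk1 they mark the glucocorticoid response element. The windows are chr12:85473640-85473889 (plus strand) for Fos, chr15:101266596-101266845 (plus) for Nr4a1, chr1:134079156-134079405 (minus) for Btg2, chr17:26508473-26508722 (minus) for Dusp1, chr6:134981751-134982000 (plus) for Apold1 and chr10:21993640-21993889 (plus) for Sgk1, which has 6 starts in the table and is shown at the one that holds the element.
Fos: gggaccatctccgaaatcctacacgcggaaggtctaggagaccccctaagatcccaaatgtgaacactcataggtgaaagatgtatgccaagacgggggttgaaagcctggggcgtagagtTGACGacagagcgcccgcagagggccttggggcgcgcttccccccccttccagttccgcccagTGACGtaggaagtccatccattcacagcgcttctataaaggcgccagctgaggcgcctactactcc
Nr4a1: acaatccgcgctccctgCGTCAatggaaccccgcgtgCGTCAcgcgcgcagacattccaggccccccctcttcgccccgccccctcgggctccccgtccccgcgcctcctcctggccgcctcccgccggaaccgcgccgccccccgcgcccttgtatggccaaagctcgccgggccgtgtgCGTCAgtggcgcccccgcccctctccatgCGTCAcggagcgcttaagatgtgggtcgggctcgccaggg
Btg2: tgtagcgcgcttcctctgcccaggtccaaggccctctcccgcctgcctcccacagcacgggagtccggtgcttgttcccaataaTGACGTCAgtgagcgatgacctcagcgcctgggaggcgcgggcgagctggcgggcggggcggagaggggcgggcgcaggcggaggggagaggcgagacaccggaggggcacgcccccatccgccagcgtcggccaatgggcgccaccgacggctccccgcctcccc
Dusp1: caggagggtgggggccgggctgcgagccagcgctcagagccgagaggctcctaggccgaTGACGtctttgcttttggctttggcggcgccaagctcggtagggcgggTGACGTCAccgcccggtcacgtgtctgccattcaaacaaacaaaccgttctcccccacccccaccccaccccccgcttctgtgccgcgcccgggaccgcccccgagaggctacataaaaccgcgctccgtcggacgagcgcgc
Apold1: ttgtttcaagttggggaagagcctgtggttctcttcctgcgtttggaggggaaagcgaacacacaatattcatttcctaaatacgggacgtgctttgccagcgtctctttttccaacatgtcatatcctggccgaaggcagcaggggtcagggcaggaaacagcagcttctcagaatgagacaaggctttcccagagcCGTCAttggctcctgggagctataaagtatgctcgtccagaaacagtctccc
Sgk1: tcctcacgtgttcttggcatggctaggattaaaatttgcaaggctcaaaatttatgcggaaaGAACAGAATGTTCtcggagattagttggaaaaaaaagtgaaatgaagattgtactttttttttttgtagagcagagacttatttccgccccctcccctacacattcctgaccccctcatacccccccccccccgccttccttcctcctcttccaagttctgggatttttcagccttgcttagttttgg
Fos and Nr4a1 hold several half-sites, Btg2 and Dusp1 a full element, and Apold1 a single half-site close to its start.

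Immediate early transcription factors were the list with the highest share of rises. Of 28 measured, 16 rose and none fell, with a median log2 fold change of 0.43, against 1.48% of all genes higher and 0.916% lower. With the GC trend subtracted 15 rose. The AP-1 genes were among the strongest. Fos went from a mean of 139 to 547 estimated counts in the authors' deposited table, a log2 fold change of 2.01 ± 0.12 (adjusted p = 3.42e-58). Its relative Fosb went from 141 to 384 in the authors' deposited table, a log2 fold change of 1.46 ± 0.11 (adjusted p = 1.23e-36), and Fosl2 rose by 0.30 ± 0.06. Of the Jun partners Junb rose by 1.21 ± 0.20 (adjusted p = 2.91e-07) in the authors' deposited table, whereas Jun, at 0.24, and Jund, at 0.39, did not pass. The adjusted p of Jun was 0.0952 and that of Jund 0.307 in the authors' deposited table.

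The zinc finger genes of the Egr family rose to very different extents. Egr2, scarce in Homecage tissue, went from 22.4 to 101 estimated counts, a log2 fold change of 2.18 ± 0.20 in the authors' deposited table (adjusted p = 3.04e-24). Egr4 rose by 1.09 ± 0.16, Egr1 by 0.75 ± 0.08 and Egr3 by 0.46 ± 0.10 in the authors' deposited table. Egr1 was the most abundant of them, and it went from a mean of 1606 to 2654 estimated counts in the authors' deposited table. As counts per transcript length, scaled to a total of 1000000, the level of Egr1 was 29.2 in Homecage and 48.8 in Restraint tissue, and that of Egr2 was 0.979 and 4.46. The orphan nuclear receptor Nr4a1 rose by 0.94 ± 0.10 (adjusted p = 1.02e-19) and Nr4a3 by 0.35 ± 0.06 (adjusted p = 1.12e-05) in the authors' deposited table. The third member, Nr4a2, was at -0.08 ± 0.09 and did not pass (adjusted p = 0.819, the authors' deposited table).

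Npas4, which is switched on by calcium in neurons and organises inhibitory synapses, went from 197 to 458 estimated counts, a log2 fold change of 1.23 ± 0.14 in the authors' deposited table (adjusted p = 2.83e-15). Atf3, a factor of the cell stress response, went from 12.2 to 53.4 in the authors' deposited table, a log2 fold change of 2.11 ± 0.34, and Maff, a small basic leucine zipper protein, from 11.6 to 46.6, a log2 fold change of 2.00 ± 0.28. Both rest on low counts in Homecage tissue. Klf4 rose by 1.39 ± 0.15, Csrnp1 by 0.53 ± 0.11 and Ier2 by 0.80 ± 0.23 in the authors' deposited table, and the adjusted p of Ier2 was 0.0947 after GC subtraction. Of the 12 that did not pass, 8 had a higher mean after Restraint and 4 a lower one, and the lowest of the list was Ier3 at -0.23 in the authors' deposited table.

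**Figure D2:**
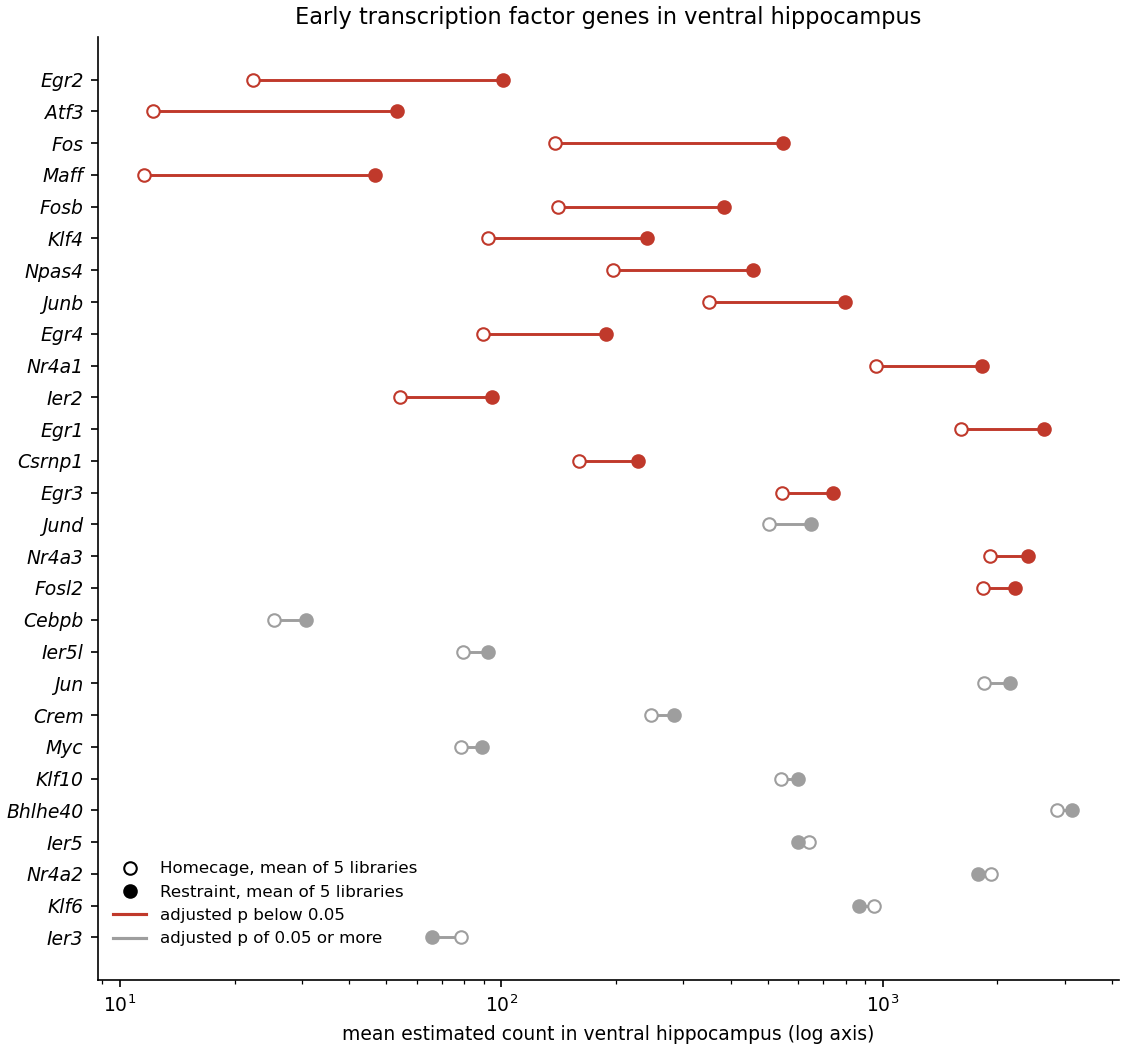
Mean estimated counts (horizontal log axis) of the 28 measured early transcription factor genes in ventral Homecage (open points) and ventral Restraint (filled points), sorted by fold change. The 16 genes drawn in red passed an adjusted p of 0.05, and all 16 were higher after Restraint.

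The list of activity-regulated effectors holds genes that carry the early response into synapses and signalling. Of 34 measured members, 12 rose and none fell (median 0.23), and 10 rose with the GC trend subtracted. Arc, whose protein removes AMPA receptors from synapses, went from 1791 to 3370.2 estimated counts in the authors' deposited table, a log2 fold change of 0.93 ± 0.15 (adjusted p = 6.27e-07). The synaptic scaffold gene Homer1 rose by 0.24 ± 0.06 (adjusted p = 0.00178), and Plk2, a kinase that weakens overexcited synapses, by 0.18 ± 0.05 in the authors' deposited table. Nptx2, which clusters AMPA receptors, rose by 0.36 ± 0.09 in the authors' deposited table, with an adjusted p of 0.0965 after GC subtraction. The small GTPase gene Arl4d rose by 0.99 ± 0.14 and the tissue plasminogen activator gene Plat by 0.22 ± 0.06 in the authors' deposited table.

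Feedback inhibitors of the same kinase routes were among the rises. Of 17 measured MAP kinase phosphatase and Sprouty genes 4 rose and none fell (median 0.06). Dusp1, which switches off MAP kinases in the nucleus, went from 299.6 to 584 estimated counts in the authors' deposited table, a log2 fold change of 0.98 ± 0.08 (adjusted p = 2.93e-32). The ERK phosphatases Dusp5 and Dusp6 rose by 0.55 ± 0.09 and 0.49 ± 0.11, and Errfi1, an inhibitor of the EGF receptor, by 0.40 ± 0.07 in the authors' deposited table. In the list of CREB pathway feedback genes 1 of 16 rose and 1 fell (median 0.05). Sik1, which keeps the CREB coactivators out of the nucleus, rose by 1.18 ± 0.12 (adjusted p = 1.89e-19), and the adenylyl cyclase gene Adcy8 fell (log2 fold change -0.35 ± 0.10) in the authors' deposited table.

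The rises included targets of the glucocorticoid receptor. Of 32 measured, 11 rose and none fell (median 0.22), and 11 rose with the GC trend subtracted as well. Sgk1 went from 1033 to 2046 estimated counts, a log2 fold change of 1.00 ± 0.07 in the authors' deposited table (adjusted p = 1.58e-39). Tsc22d3, whose product blocks inflammatory signalling, went from 1429 to 2016 in the authors' deposited table, a log2 fold change of 0.52 ± 0.07 (adjusted p = 8.64e-11). Per1, a clock gene with a known hormone-responsive enhancer, rose by 0.50 ± 0.05 (adjusted p = 1.15e-16) in the authors' deposited table. Cdkn1a, which arrests the cell cycle, rose by 0.72 ± 0.13, Nfkbia, the inhibitor of NF-kB, by 0.71 ± 0.11, and Ddit4, an inhibitor of the mTOR pathway, by 0.45 ± 0.10 in the authors' deposited table. Dusp1, Errfi1 and Arl4d stand on this list and on an earlier one, and several of these genes are also activity-regulated in neurons. Per1 and Slc2a1 are among the genes on this list and on a later one. Sik1, Btg2 and Cyr61 stand among the activity-regulated effectors and on another list too. A gene on several lists is counted in each. Fkbp5, the receptor's chaperone and a late target, was at 0.18 ± 0.09 and did not pass (adjusted p = 0.374, the authors' deposited table).

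The receptors themselves did not pass. Nr3c1 was at -0.03 ± 0.05 (adjusted p = 0.909) and Nr3c2 at 0.13 ± 0.06 (adjusted p = 0.337) in the authors' deposited table. None of 16 measured receptor and chaperone genes was called in either direction (median 0.01), against 2.39% of all genes. Of 21 clock genes Per1 and Per2 rose, the latter by 0.25 ± 0.06 (adjusted p = 0.00223, the authors' deposited table), and none fell.

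The highest fold change among the 203 rises belonged to a vascular gene. Apold1 went from 52.6 to 359 estimated counts in the authors' deposited table, a log2 fold change of 2.76 ± 0.21 (adjusted p = 1.20e-34). Of 23 measured endothelial and shear-responsive early genes 6 rose and none fell (median 0.18). With the GC trend subtracted 7 rose and 1 fell. Klf2, the flow-responsive factor of endothelium, went from 71.4 to 225 in the authors' deposited table, a log2 fold change of 1.66 ± 0.16 (adjusted p = 2.23e-23). Cyr61, a matricellular protein of vessels and other cells, went from 61.8 to 237, a log2 fold change of 1.94 ± 0.19 in the authors' deposited table. It is also the highest member of the list of activity-regulated effectors. Adamts1, a secreted protease, rose by 0.73 ± 0.10 and Nostrin, which traffics endothelial nitric oxide synthase, by 0.53 ± 0.16 in the authors' deposited table, the latter with an adjusted p of 0.0556 when group totals were made equal. Gimap6, a GTPase of lymphocytes and endothelium, rose by 0.98 ± 0.14 in the authors' deposited table. None of 16 endothelial cell markers was called, against 2.39% of all genes. Their log2 fold changes lay between −0.19 and 0.06, and their summed mean counts were 8949 in Homecage and 8506 in Restraint tissue.

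Other inducible genes were called in part. Of 19 growth arrest and antiproliferative genes 8 rose and none fell (median 0.18), and 5 rose with the GC trend subtracted. Btg2, a coregulator that slows division, went from 327 to 626 estimated counts in the authors' deposited table, a log2 fold change of 0.95 ± 0.09 (adjusted p = 1.14e-20). Gadd45g and Gadd45b, which act in stress signalling and DNA demethylation, rose by 0.77 ± 0.17 and 0.49 ± 0.14 in the authors' deposited table, and the adjusted p of Gadd45b was 0.103 after GC subtraction. Of 20 NF-kB and cytokine feedback genes 3 rose: Nfkbia, its relative Nfkbiz by 0.39 ± 0.10, and Zfp36, which destabilises cytokine transcripts, by 0.63 ± 0.16 in the authors' deposited table.

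Of 20 thioredoxin, arrestin and glucose genes 4 rose and none fell (median 0.07), and 3 rose with the GC trend subtracted. Slc2a1, the glucose transporter of the blood-brain barrier, went from 1610.0 to 2323 estimated counts in the authors' deposited table, a log2 fold change of 0.55 ± 0.07 (adjusted p = 9.82e-11). Txnip, which binds thioredoxin and lowers glucose uptake, rose by 0.46 ± 0.07, and the arrestin Arrdc2 by 0.66 ± 0.11 in the authors' deposited table. Dio2, which activates thyroid hormone, rose by 0.50 ± 0.07 (adjusted p = 6.48e-09) in the authors' deposited table and was the only one of 12 thyroid pathway genes called. Of 27 heat shock genes 2 rose, Hspa1b by 0.68 ± 0.16 and Dnajb5 by 0.25 ± 0.06 in the authors' deposited table. Its near-identical copy Hspa1a was at 0.48 ± 0.19 and did not pass (adjusted p = 0.212, the authors' deposited table), and how reads were divided between the copies is not given in the sources used here, so both values are uncertain. Of 31 chromatin regulators 3 rose, Arid5a by 0.52 ± 0.08, the demethylase gene Kdm6b by 0.32 ± 0.07 and the deacetylase gene Hdac4 by 0.20 ± 0.06, and Satb1 fell (log2 fold change -0.28 ± 0.07) in the authors' deposited table.

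**Figure D3:**
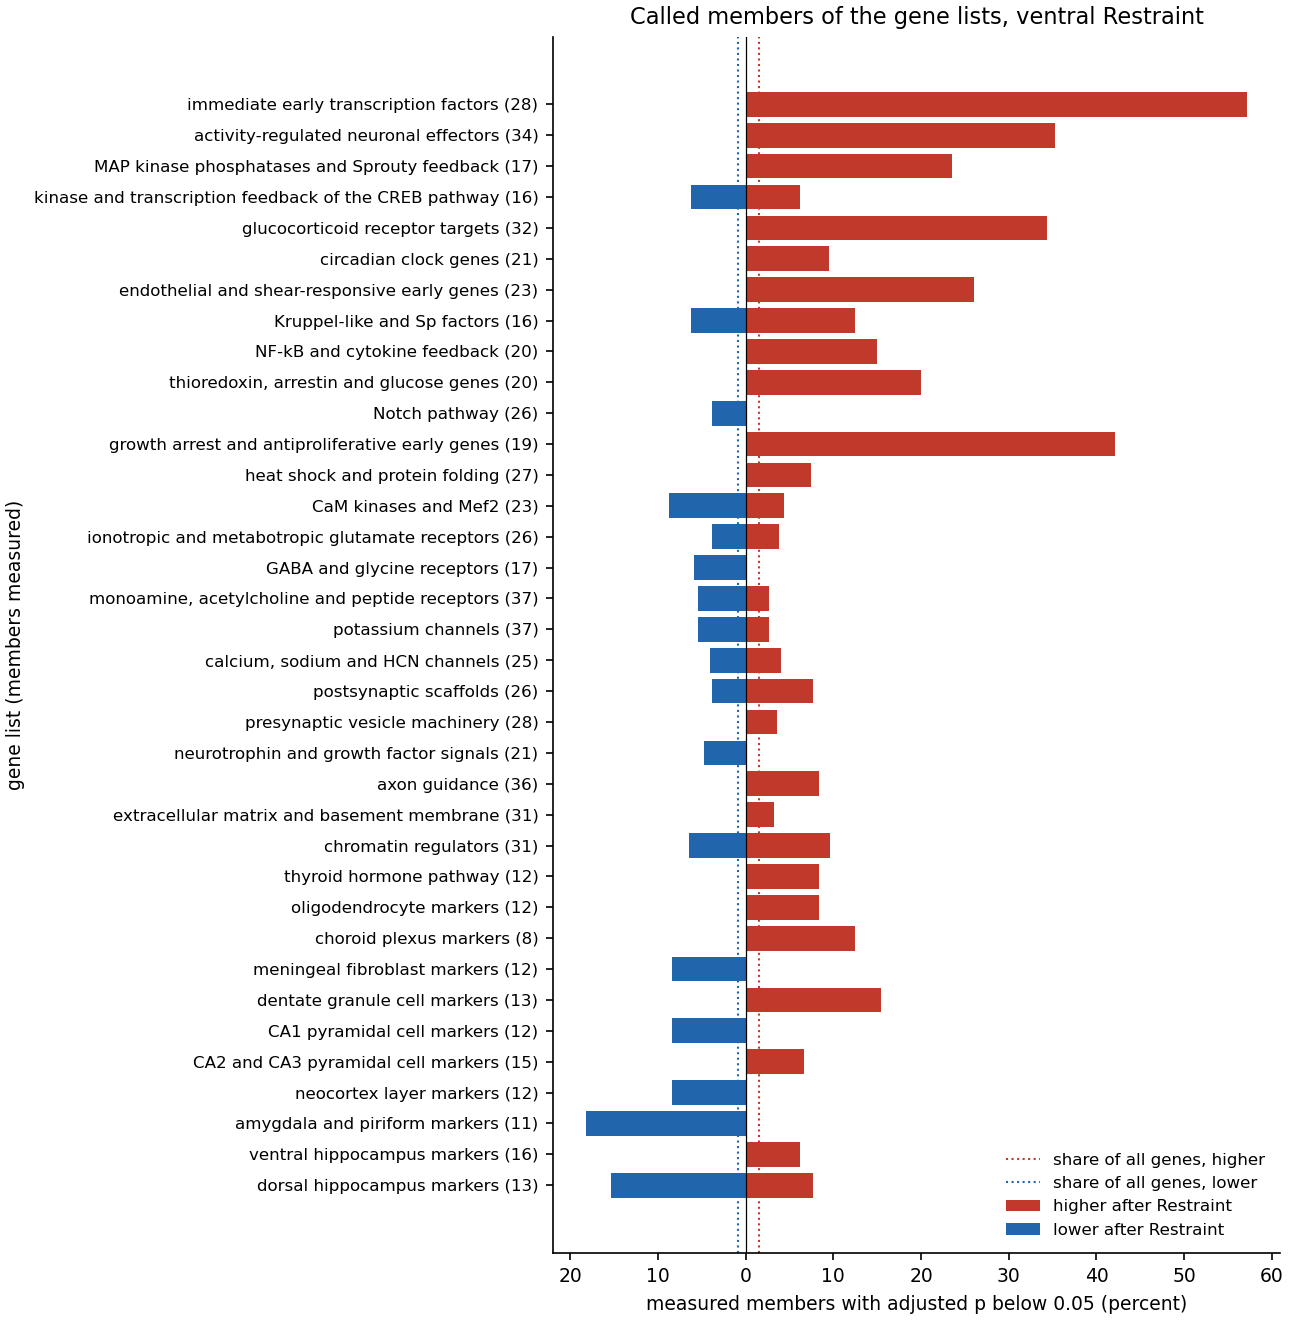
Share of the measured members of each list that passed an adjusted p of 0.05, higher to the right and lower to the left, for the lists with any called member; dotted lines mark the shares over all genes, 1.48% higher and 0.916% lower. Immediate early transcription factors had 16 of 28 members higher and none lower, and the synaptic and channel lists had 1 to 3 called members each.

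Hes5 was the fall with the lowest adjusted p. It went from 188 to 86.2 estimated counts in the authors' deposited table, a log2 fold change of -1.09 ± 0.19 (adjusted p = 2.80e-06). It was the only one of 26 Notch pathway genes called, and the median of that list was 0.06. Necab1 went from 3130.0 to 2233, a log2 fold change of -0.46 ± 0.08 (adjusted p = 3.41e-06, the authors' deposited table). Mef2c, a factor that limits excitatory synapse number, went from 3943 to 2924 in the authors' deposited table, a log2 fold change of -0.40 ± 0.07 (adjusted p = 2.49e-05). Camk2d, the delta chain of CaM kinase II, went from 2097 to 1379.6 in the authors' deposited table, a log2 fold change of -0.57 ± 0.11 (adjusted p = 2.50e-05). In the list of 23 CaM kinase and Mef2 genes these 2 fell, Camkk1 rose by 0.19 ± 0.05 in the authors' deposited table, and the median was −0.01.

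Cbln4, a secreted organiser of synapses, fell with a log2 fold change of -0.66 ± 0.13 in the authors' deposited table. Lgi2, a secreted protein linked to epilepsy in dogs, fell with -0.37 ± 0.07 and Fgf12, which binds sodium channels, with -0.29 ± 0.05 in the authors' deposited table. Stmn1, which destabilises microtubules, went from 7394 to 5935 estimated counts in the authors' deposited table, a log2 fold change of -0.29 ± 0.06 (adjusted p = 1.79e-04). Nrep went from 1504 to 1067 in the authors' deposited table, a log2 fold change of -0.47 ± 0.08, the only called member among 21 growth factor signals. Of 37 potassium channel genes 1 rose and 2 fell, and with the GC trend subtracted none rose and 3 fell. The falls called without subtraction were Kcnj2 and Kcna4 (log2 fold changes -0.54 ± 0.14 and -0.30 ± 0.08) in the authors' deposited table. Of 37 monoamine, acetylcholine and peptide receptor genes the nicotinic subunit gene Chrna4 fell (log2 fold change -0.35 ± 0.08), as did the neuropeptide Y receptor gene Npy1r (-0.25 ± 0.06), in the authors' deposited table. Adra1d, an alpha-1 adrenergic receptor gene of the same list, rose by 0.39 ± 0.12 in the authors' deposited table, with an adjusted p of 0.549 after GC subtraction, and it did not pass with the length trend subtracted or totals made equal.

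Apart from Hes5, the falls larger than 2-fold rested on low means. Ctxn3 went from 48.2 to 22.8, Sec14l3 from 101 to 48.4, Fgfbp1 from 26 to 9.6 and Tbx15 from 25.6 to 12.4 estimated counts in the authors' deposited table. Their log2 fold changes were -1.05 ± 0.20, -1.02 ± 0.20, -1.40 ± 0.31 and -1.02 ± 0.27 in the authors' deposited table. Cldn1, a tight junction gene of epithelia and meninges, went from 105 to 54.8 in the authors' deposited table, a log2 fold change of -0.91 ± 0.19.

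Other synaptic and channel lists had a few called members each, against 2.39% of all genes called (1.48% higher and 0.916% lower). Among 26 glutamate receptor genes Grik4 rose by 0.24 ± 0.06 and Gria4 fell (log2 fold change -0.18 ± 0.05) in the authors' deposited table, the latter with an adjusted p of 0.134 after GC subtraction. Among 26 postsynaptic scaffolds Homer1 and Homer3 rose and Lrrtm3 fell, and Homer3, at 0.38 ± 0.09 in the authors' deposited table, had an adjusted p of 0.0664 after GC subtraction. Of 28 presynaptic genes Bsn rose by 0.22 ± 0.06 in the authors' deposited table, with an adjusted p of 0.262 after GC subtraction. Of 36 axon guidance genes 3 rose and none fell, led by Plxna1 at 0.27 ± 0.06 in the authors' deposited table, and with GC subtraction 1 rose and 1 fell. No member was called among 21 neuropeptide precursors, 28 splicing genes, 33 ribosomal protein genes, 30 nuclear respiratory chain genes and 19 cholesterol synthesis genes. With the receptor list, these make 6 of 32 function lists without a call. Clk1, a splicing kinase gene, was at 0.07 ± 0.07 (adjusted p = 0.738) and the imprinted gene Ndn at -0.27 ± 0.20 (adjusted p = 0.641) in the authors' deposited table.

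The called genes differed in where along the hippocampus they are expressed, read from libraries that enter neither group. In the Swim libraries the median log2 ratio of ventral over dorsal mean counts was 0.36 for the falls, −0.08 for the rises and 0.01 for all genes. Of 119 falls held there 96 (80.7%) were higher in ventral tissue, against 53.5% of all genes, and 16.0% were over 2-fold higher, against 1.5%. Of 198 rises 119 (60.1%) were higher in dorsal tissue, against 46.5% of all genes. In the Handling libraries the medians were 0.62 for the falls, −0.21 for the rises and 0.03 for all genes. Necab1 stood at a log2 ratio of 1.23, Camk2d at 1.03 and Cbln4 at 1.47 in the Swim libraries, whereas Mef2c stood at -0.17, in values from the authors' deposited tables. In Homecage tissue, which enters the comparison, Mef2c was higher in ventral than in dorsal hippocampus, at a log2 ratio of 0.35 (adjusted p = 2.14e-05) in the authors' deposited table. The 28 common rises held there had a median ratio of 0.10 in the Swim libraries and 27 a median of −0.01 in the Handling libraries.

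**Figure D4:**
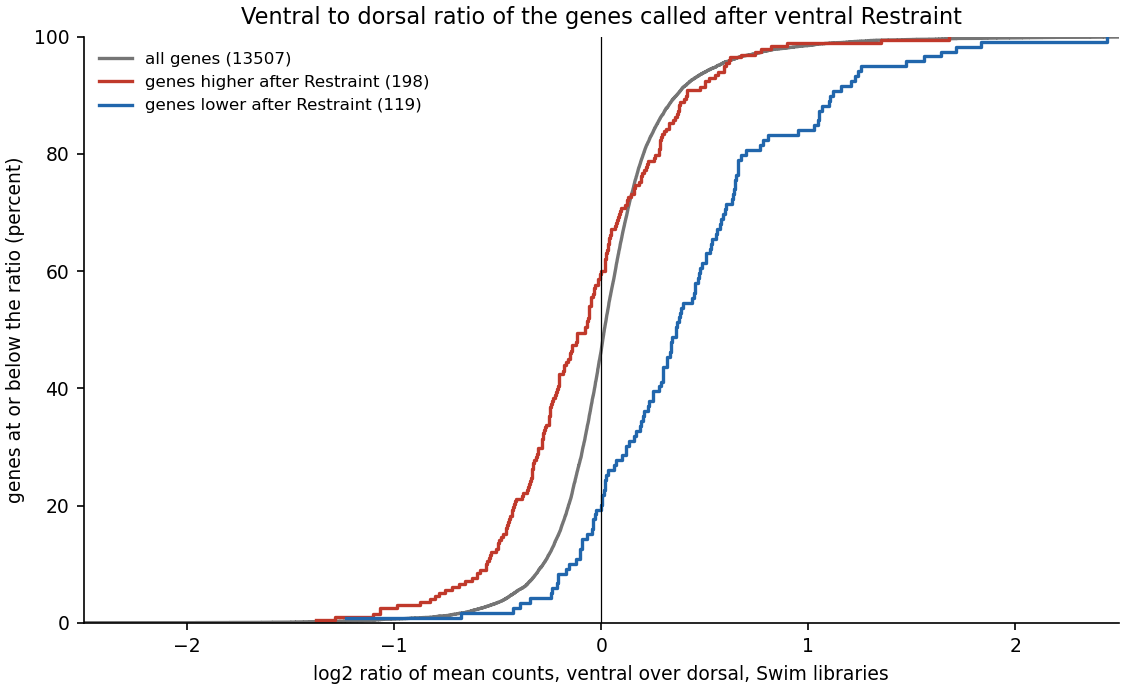
Cumulative share of genes (vertical axis, percent) by the log2 ratio of ventral over dorsal mean counts in the Swim libraries (horizontal axis, cut at the ends) for all genes, the rises and the falls after ventral Restraint. The curve of the falls lies to the right of all genes, with a median of 0.36, and that of the rises to the left, with a median of −0.08.

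Markers of cell types and neighbouring tissues were measured beside these changes, and the blood and meningeal lists had median log2 fold changes of −0.33 and −0.27, against a median size of 0.35 for the called falls. Against the same ventral Homecage libraries the blood medians were −0.50 after Swim and −0.41 after Handling. The meningeal medians were −0.16 and −0.22 in the same order. Of 13 dentate granule cell markers 2 rose, Prox1 by 0.28 ± 0.09 and Plk5 by 0.46 ± 0.14 in the authors' deposited table, all 13 lay between 0.00 and 0.46 on the log2 scale, and their summed counts were 14626 in Homecage and 16083 in Restraint tissue. Neither passed with the GC trend subtracted (adjusted p = 0.0554 and 0.281), nor with the length trend subtracted or totals made equal, as computed from the authors' deposited table. Of 11 amygdala and piriform markers Rspo2 and Meis2 fell (log2 fold changes -0.36 ± 0.09 and -0.28 ± 0.07) in the authors' deposited table, with summed counts of 14883 and 14087 in Homecage and Restraint tissue. The 11 subiculum markers had a median of −0.16 with none called, and their sums were 18967 and 17138. Of 12 meningeal fibroblast markers Slc13a4 fell (log2 fold change -0.81 ± 0.22) in the authors' deposited table, and their sums were 6292 and 5121. These sums include Dcn, at means of 2121 and 1755, which is also listed for CA1 and for ventral hippocampus. The 6 blood markers measured were all lower, between −0.46 and −0.27, with none called and sums of 6005 and 4650. Of 16 listed choroid plexus markers 8 were measured, and of these F5 rose by 0.68 ± 0.20 and Ttr was at 0.38 ± 0.38 (adjusted p = 0.765) in the authors' deposited table. Of 15 CA2 and CA3 markers Cdh24 rose by 0.40 ± 0.09 and of 12 oligodendrocyte markers Mag by 0.17 ± 0.05 in the authors' deposited table, and neither passed with the GC trend subtracted (adjusted p = 0.0593 and 0.23). Of 12 CA1 markers 1 fell, and of 12 neocortex markers 1 fell, with 2 in each list once the GC trend was subtracted. Of 16 ventral hippocampus markers Zbtb20 rose by 0.27 ± 0.07, and of 13 dorsal hippocampus markers Spata13 rose by 0.37 ± 0.10 and Gsg1l and Oxr1 fell (log2 fold changes -0.44 ± 0.12 and -0.21 ± 0.05) in the authors' deposited table. Of these 13 listed dorsal markers, 8 were lower and 4 higher in ventral than in dorsal Homecage tissue. Gsg1l and Oxr1 were higher there, at log2 ratios of 0.41 and 0.92, and Spata13 was lower, at -1.50, in the authors' deposited table. Lct stands on the ventral, the dorsal and the dentate list. No marker of astrocytes, microglia, pericytes, interneurons or mossy cells was called, no listed marker measured was at a mean of 0 in Homecage tissue, and 13 of 23 marker lists had no call. Over all genes 2.39% were called, so the lack of a call does not set lists this short apart from all genes. In bulk tissue fewer cells of a type and less RNA per cell cannot be told apart, and the part of the dissection in the falls and rises was not tested.

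Most ventral rises had the same direction in whole hippocampus after Restraint, measured in other libraries. Of 202 ventral rises held there 178 (88.1%) were higher after Restraint, against 47.9% of all genes. The trend of fold change with GC content had the same sign in ventral and whole tissue (rho 0.376 and 0.265). Its part in the shared directions was not tested. Whole tissue had 69 rises (0.504% of genes) and 5 falls (0.0365%). Both tables called 54 rises, 26.6% of the ventral and 78.3% of the whole list. Of 123 ventral falls held there 89 (72.4%) were lower, against 52.1% of all genes, and 4 were called, Hes5, Kcnj2, Clec2d and Tfrc. These are 3.17% of the ventral and 80% of the whole list. Tfrc, the transferrin receptor gene, was at -0.25 ± 0.07 in ventral and -0.20 ± 0.05 in whole tissue in the authors' deposited tables, and its ventral adjusted p was 0.0998 after GC subtraction.

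In dorsal hippocampus after Restraint 52 genes rose (0.381%) and 32 fell (0.235%), and the labels do not say whether dorsal and ventral libraries came from the same mice. The tables shared 32 rises, 15.8% of the ventral and 61.5% of the dorsal list, and 2 falls, Hes5 and Zfp46, 1.59% of the ventral and 6.25% of the dorsal list. Of 201 ventral rises held there 118 (58.7%) were higher in dorsal tissue, against 52.9% of all genes, and of 119 ventral falls 49 (41.2%) were lower, against 47.1%. The GC trend had the opposite sign in dorsal tissue (rho −0.461), and its part in these shares was not tested. Genes called in neither other table made up 146 of the 203 rises and 121 of the 126 falls. The 29 rises common to all 3 tables included Apold1, Klf2, Klf4, Fos, Fosb, Egr1, Egr2, Npas4, Nr4a1, Dusp1, Btg2, Sik1, Sgk1, Tsc22d3, Nfkbia and Txnip, and Hes5 was the fall common to all 3.

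The size of the change differed between ventral and dorsal tissue for 267 of 13516 genes (1.98%) at an adjusted p of 0.05 for the difference itself. Of these, 236 were higher in ventral tissue and 31 lower. The error of a difference treats both tables as independent, which was not tested and would not hold where dissections share mice. After subtraction of the GC trend on both sides, 7 of 13486 genes passed (0.0519%), so the count depended on that step, and only Ttr, Bmp3 and Gsg1l of the 7 are described here. Egr4 had log2 fold changes of 1.09 ± 0.16 in ventral and -0.15 ± 0.24 in dorsal tissue in the authors' deposited tables, a difference of 1.24 ± 0.29 (adjusted p = 0.00858, and 0.661 after GC subtraction). Camk2d had -0.57 ± 0.11 and 0.02 ± 0.08 in the authors' deposited tables, a difference of -0.59 ± 0.13 (adjusted p = 0.00752, and 0.0704 after GC subtraction). Mef2c had -0.40 ± 0.07 and 0.02 ± 0.06 in the authors' deposited tables, a difference of -0.42 ± 0.10 (adjusted p = 0.00752, and 0.0903 after GC subtraction). Homer3, a postsynaptic scaffold gene, had 0.38 ± 0.09 and -0.21 ± 0.06 in the authors' deposited tables, a difference of 0.59 ± 0.11 (adjusted p = 0.00184, and 0.164 after GC subtraction). Among the rises shared by both dissections, Fos was at 2.01 ± 0.12 in ventral and 1.35 ± 0.12 in dorsal tissue in the authors' deposited tables, a difference of 0.65 ± 0.17 (adjusted p = 0.0196, and 0.138 after GC subtraction). Npas4 was at 1.23 ± 0.14 and 0.58 ± 0.12 in the authors' deposited tables, a difference of 0.65 ± 0.19 (adjusted p = 0.0371, and 0.306 after GC subtraction). Apold1 was at 2.76 ± 0.21 and 2.34 ± 0.20 in the authors' deposited tables, a difference of 0.42 ± 0.29 that did not pass (adjusted p = 0.609). Sgk1 was at 1.00 ± 0.07 and 0.92 ± 0.09 in the authors' deposited tables, a difference of 0.07 ± 0.11 that did not pass (adjusted p = 0.861).

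Bmp3, a member of the BMP family, and Gsg1l, an auxiliary protein of AMPA receptors, passed with and without GC subtraction. Bmp3 was at -0.68 ± 0.15 in ventral and 0.36 ± 0.18 in dorsal tissue in the authors' deposited tables, with a difference of -1.04 ± 0.23 and an adjusted p of 0.0485 after GC subtraction. Gsg1l was at -0.44 ± 0.12 and 0.10 ± 0.07 in the authors' deposited tables, with a difference of -0.55 ± 0.14 and an adjusted p of 0.0121 after GC subtraction. Ttr, the choroid plexus marker, was at 0.38 ± 0.38 and 4.94 ± 0.97 in the authors' deposited tables, a difference of -4.56 ± 1.04 (adjusted p = 0.00752, and 0.0468 after GC subtraction). Of 8 choroid plexus markers measured in dorsal tissue 3 rose and none fell after Restraint, with a median of 2.10, against 0.19 in ventral tissue. F5 rose by 3.80 in dorsal tissue in the authors' deposited table. The part of choroid plexus tissue in the Ttr difference was not tested.

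**Figure D5:**
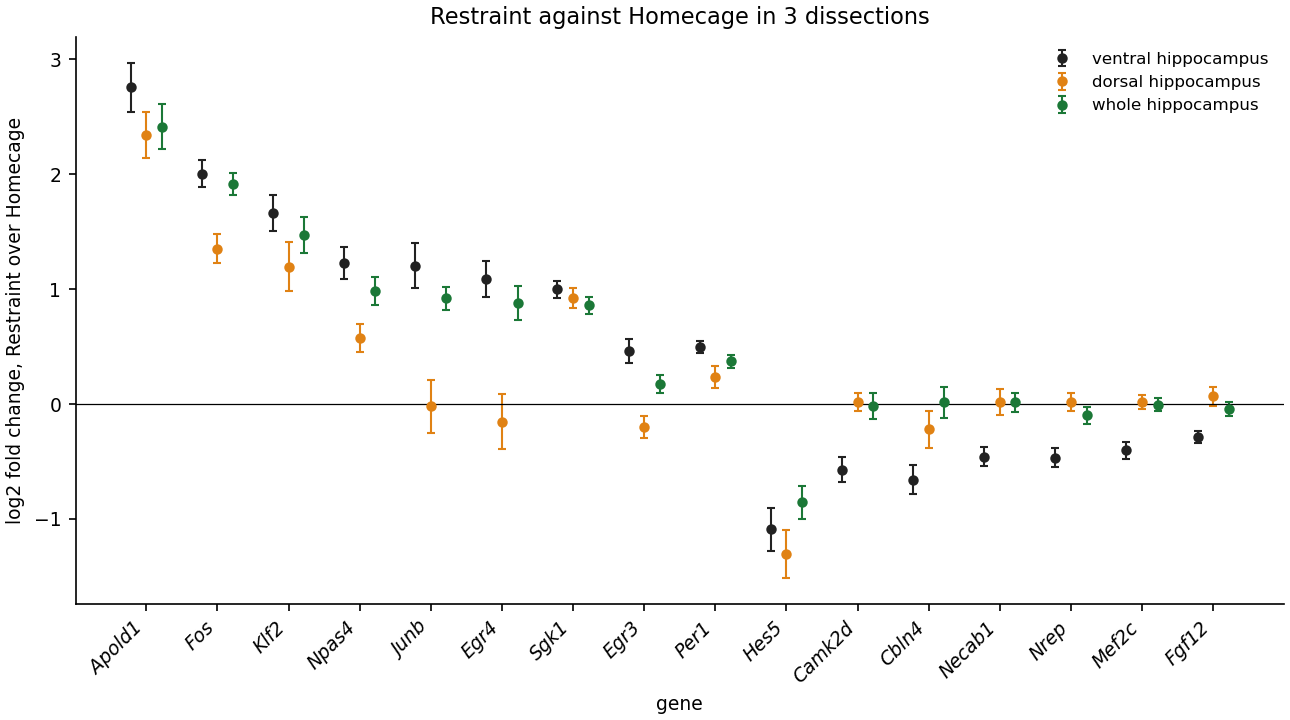
Log2 fold change of 16 genes, Restraint over Homecage, in ventral, dorsal and whole hippocampus (vertical axis); bars are 1 standard error either side, implied by the authors' p. The first 9 genes rose and the last 7 fell in ventral tissue, and of the falls only Hes5 was also below 0 by more than its error bars in both other dissections.

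Against whole hippocampus the difference passed for 3 of 13601 genes (0.0221%), all lower in ventral tissue. They were Bmp7, Ptgds and Fam180a. Ptgds, the prostaglandin D synthase gene of meninges and choroid plexus, was at -0.59 ± 0.16 in ventral and 0.44 ± 0.14 in whole tissue in the authors' deposited tables, a difference of -1.03 ± 0.21 (adjusted p = 0.00699). Bmp7, also expressed in meninges, was at -0.52 ± 0.12 and 0.47 ± 0.17 in the authors' deposited tables, a difference of -0.999 ± 0.206 (adjusted p = 0.00699). Fam180a was at -0.67 ± 0.22 in ventral tissue in the authors' deposited table and did not pass there. The meningeal fibroblast markers, given above, had a median of −0.27 in ventral and 0.34 in whole tissue after Restraint, and their part in these differences was not tested.

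Swim and Handling were compared with the same ventral Homecage libraries, so their values are set beside those of Restraint and no overlap is counted. In ventral tissue 955 genes passed after Swim (6.94%) and 118 after Handling (0.856%). Fos was at 2.01 after Restraint, 2.06 after Swim and 2.02 after Handling, and Egr2 at 2.18, 2.35 and 2.69 in the authors' deposited tables. Npas4 was at 1.23, 0.77 and 0.62, and Hes5 at -1.09, -1.19 and -0.29 in the authors' deposited tables, in the same order of treatments. Apold1 was at 2.76, 1.77 and 0.62, and Klf2 at 1.66, 0.80 and 0.73 in the authors' deposited tables. Camk2d was at -0.57, -0.43 and -0.30, and Mef2c at -0.40, -0.36 and -0.28 in the authors' deposited tables.

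Restraint and Swim differed for 1 of 13704 genes (0.0073%) and Restraint and Handling for 19 of 13702 (0.139%), with errors that are upper bounds because the Homecage libraries are shared. The gene that differed from Swim was Clk1, at 0.07 after Restraint and -0.47 after Swim in the authors' deposited tables, a difference of 0.54 ± 0.10 (adjusted p = 2.08e-04). Against Handling 4 genes were higher after Restraint, Apold1 by 2.14 ± 0.28 (adjusted p = 1.39e-10), Cyr61 by 1.36 ± 0.26 (adjusted p = 3.09e-04), Btg2 by 0.59 ± 0.13 (adjusted p = 0.00383) and Sgk1 by 0.49 ± 0.11 (adjusted p = 0.00954) on the log2 scale, computed from the authors' deposited tables. The other 15 were lower after Restraint than after Handling, among them the choroid plexus markers Ttr, with a difference of -5.01 ± 0.90, and F5, with -3.62 ± 0.68. All 8 measured choroid plexus markers were called higher after Handling, and their part in these 15 differences was not tested. The differences from Handling, computed from the authors' deposited tables, did not pass for Fos at -0.01 ± 0.20 (adjusted p = 1) and Egr1 at -0.32 ± 0.12 (adjusted p = 1).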

How the data were processed

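Poly(A)-enriched RNA from 60 hippocampal libraries was sequenced, and 8 of the authors' comparison tables were used. Per the file headers, the deposited tables give the mean estimated count of each group, the fold change (a ratio of the groups), its log2 value, a p-value and an adjusted p. Bowtie 0.12.2 and the assembly mm8 appear in the submitters' processing notes with no step attached. The counting program, the test, its model and any use of strand were not given in the sources used here. Every mean times 5 was a multiple of 0.01 (100% of values), and the deposited adjusted p matched a Benjamini-Hochberg adjustment over all entries. The table of ventral Restraint had 13892 entries, and 144 repeats of an Ensembl ID were dropped. The smallest sum of both means was 34.2 counts. The labels name no batch. The series record counts 5 mice per condition, without saying if the 3 dissections of a treatment share mice.

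Count tests had been planned for the case of counts per library. The tables hold comparisons, so the authors' adjusted p at 0.05 made the calls. The standard error of a log2 fold change was its size over the normal quantile of its p. Differences between 2 tables were divided by their combined error (the square root of the sum of squared errors), compared with a normal distribution (two-sided) and adjusted over all genes in both. This step was tested on simulated data, drawn independently for each table and without a GC trend. The simulation therefore does not cover shared mice or the GC trends of the real data. Differences between ventral and whole tissue and between treatments were added after the data were seen. The GC and length trends were lowess fits (fraction 0.3) on GENCODE M21 transcripts of GRCm38, with a value for 99.8% of genes. Promoters came from RefSeq (GRCm38.p6). Python 3.11.15, pandas 2.3.3, scipy 1.17.1 and statsmodels 0.14.6 were used.

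The members, 55 gene lists and 4 alternatives were chosen with earlier results of these data known. Named were the 20 rises and 15 falls with the lowest adjusted p, up to 5 members of each list, 10 genes of each direction by their difference from dorsal tissue, and 21 genes always. Atf3, Bmp7, Clec2d, Csrnp1, Egr4, Fam180a, Fosl2, Gadd45b, Gimap6, Hspa1a, Ier2, Ier3, Jun, Junb, Jund, Nostrin, Nptx2, Nr4a2, Nr4a3, Plat, Ptgds, Tbx15, Tfrc and Zfp46 fall outside that rule: they were named after their values were seen. A few results, single members of the lists among them, are not reported here.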

Additional observations from a re-analysis of the deposited data

Results flagged for a closer look

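For 30 named genes the test of the difference itself separated the change after Restraint in ventral and dorsal hippocampus, at an adjusted p below 0.05. Values are ventral minus dorsal log2 fold changes, so a change in either tissue moves them. Among early genes the difference was 0.65 for Fos, 0.65 for Npas4, 0.48 for Btg2, 1.52 for Atf3, 0.66 for Egr3, 1.24 for Egr4 and 0.85 for Gadd45g. Within the Jun family it was 1.22 for Junb, 0.57 for Jun and 1.18 for Jund, and for the nuclear receptor gene Nr4a2 it was -0.43. Jun and Jund did not pass in ventral tissue. In dorsal tissue they were at -0.33 and -0.79 and did not pass either (adjusted p = 0.252 and 0.0604, the authors' deposited table). Among falls in ventral tissue it was -0.59 for Camk2d, -0.42 for Mef2c, -0.47 for Necab1, -0.49 for Nrep, -0.36 for Fgf12, -0.30 for Stmn1, -1.04 for Bmp3, -0.55 for Gsg1l and -2.61 for Cldn1. Cldn1 was at -0.91 in ventral and 1.70 in dorsal tissue, and the dorsal value did not pass (adjusted p = 0.278), in the authors' deposited tables.

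Among synaptic, channel and receptor genes the same difference was 0.59 for Homer3, 0.36 for Bsn, 0.37 for Grik4, 0.31 for Plxna1 and 0.78 for Adra1d. It was 1.05 for Hspa1b and 0.92 for its near-identical copy Hspa1a, both uncertain, 0.39 for Kdm6b, 0.65 for the CA2 and CA3 marker Cdh24 and -4.56 for Ttr. Of these 30 genes Bmp3, Gsg1l and Ttr passed after GC subtraction.

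Ventral minus whole differences passed for Bmp7 at -0.999, Ptgds at -1.03 and Fam180a at -1.58. Within ventral tissue the change after Restraint differed from that after Swim for Clk1 by 0.54. It differed from that after Handling for Apold1 by 2.14, Cyr61 by 1.36, Btg2 by 0.59 and Sgk1 by 0.49. For the choroid plexus markers F5 and Ttr the difference from Handling was -3.62 and -5.01.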

How the results depend on the processing

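The 4 alternatives subtracted the GC trend, subtracted the transcript length trend, made the group totals equal, or kept genes with a mean of at least 100 counts. Subtracting the GC trend lowered the rises from 203 to 130 and the ventral minus dorsal differences from 267 to 7. The counts of all calls, of falls and of calls shared with whole or dorsal tissue stayed within 1.5 times the reported count under all 4. Rises were 61.7% of the calls, 54.6% with the GC trend subtracted, 57.5% with the length trend subtracted, 54.3% with equal totals and 63.0% from 100 counts. Differences from Handling fell from 19 to 6 when genes under 100 counts were left out, and those from Swim rose from 1 to 2 with the GC trend subtracted. No named gene changed direction under any alternative that held it. The call was lost for 12 named genes with the GC trend, 4 with the length trend and 5 with equal totals. Depth limits precision chiefly for genes of few counts, such as Fgfbp1 and Ctxn3. No paired analysis was possible because the tables used here give group means and no value for a single library. For the same reason no library could be left out in turn.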
